A study of Mus musculus with 48 samples.

Results

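Axon guidance ligands and receptors were followed in RNA of cells labelled as astrocytes from 3 mouse brain regions. Members were chosen by gene symbol alone, as the genes named Epha, Ephb, Efna, Efnb, Sema (classes 3 to 7), Plxn, Nrp, Slit, Robo, Ntn, Dcc or Unc5. This gave 69 of the 24421 symbols measured, 35 ligands and 34 receptors, and each member had a row in every table. They comprised 9 EphA and 5 EphB receptors, 5 A ephrins and 3 B ephrins, 7 class 3 semaphorins, 13 membrane semaphorins, 9 plexins, 2 neuropilins, 3 Slits, 4 Robos, 4 netrins and 5 netrin receptors.

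The study sequenced 48 libraries of dissociated cortex, hippocampus and olfactory bulb that its labels call astrocytes. Cortex had 3 libraries at postnatal day 1 (P1), 3 at P7 and 4 at P14, and hippocampus and olfactory bulb had 3 at each of these ages, with no genotype named. At P28 a Gabbr1 conditional knockout (cKO) was set against Gabbr1 controls, with 4 cKO and 4 control libraries of cortex. Hippocampus had 4 cKO and 2 control libraries, and olfactory bulb 3 of each. Gabbr1 encodes a subunit of the metabotropic GABA receptor. The labels name tamoxifen as the treatment of all P28 hippocampal and olfactory bulb libraries, cKO and control alike, and of 3 of the 8 cortical ones (control replicates 3 and 4, cKO replicate 4). They do not give the Cre driver, the strain or the sex, nor whether libraries came from separate animals. P-values therefore measure the spread between these libraries, which may be technical.

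Axon guidance cues tell a growing axon where to turn. Ephrins on one cell bind Eph receptor tyrosine kinases on another and commonly repel. Semaphorins act through plexins, with neuropilins as co-receptors for most of the secreted class 3 forms. Slits repel through Robo receptors. Netrins attract through DCC and repel through UNC5 receptors. Astrocytes and their precursors carry several of these proteins, and members of the same families are also used in contacts between astrocytes and synapses.

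Values are the read counts the authors divided by a size factor for each library, so a level is a normalised read count. Libraries held 1773226 to 15008466 reads. Depth differed with age in 2 regions. Olfactory bulb libraries had 5473837 to 9062118 reads at P1 and 1773226 to 2669394 at P14. Hippocampal ones had 5098757 to 8986015 at P1 and 2539583 to 4248087 at P14. Low P14 levels in these regions thus rest on fewer reads. The ribosomal RNA gene Rn45s took 13.7% to 38.0% of the reads in 46 libraries, and 0.594% and 0.476% in hippocampal P28 cKO replicate 2 and olfactory bulb P28 control replicate 2. The 12 astrocyte markers were present in every group, and their summed level rose from 23751 to 31273 at P1 to 523910 to 580490 at P14 in cortex. It rose from 14566 to 17078 up to 446470 to 479860 in hippocampus, and from 5786 to 7971 up to 146440 to 161780 in olfactory bulb. Neuron markers fell over the same interval, where 11 of 12 passed as lower in both cortex and hippocampus, and 10 as lower and 1 as higher in olfactory bulb. Their summed level went from 8305 to 11713 down to 280 to 502 in cortex, from 7707 to 10070 down to 443 to 683 in hippocampus, and from 15909 to 19141 down to 2014 to 3184 in olfactory bulb. At P1 every olfactory bulb library thus had a higher neuron than astrocyte sum. At P7 the ranges overlapped there (neuron markers 9776 to 15112, astrocyte markers 11917 to 21865). Sums over different genes do not give shares of cells. Oligodendrocyte markers rose (6 of 7 tested in cortex, 4 of 4 in hippocampus and in olfactory bulb), and so did 10 of 10 endothelial and mural markers in olfactory bulb. Microglia markers rose too (10 of 10 tested for cortex; for hippocampus 5 of 7; for olfactory bulb 5 of 6), with sums of 434 to 716 at P1 and 1646 to 3620 at P14 in cortex, 106 to 154 and 289 to 732 in hippocampus, and 45.8 to 63.5 and 282 to 499 in olfactory bulb. Choroid plexus and ependymal markers summed to 42.8 to 83.3 at P1 and 3981 to 8032 at P14 in hippocampus, where 2 of 3 tested rose. Oligodendrocyte precursor markers summed to 131 to 168 at P1 and 1176 to 1227 at P14 in olfactory bulb. In hippocampus their sums were 363 to 564 at P1 and 926 to 1036 at P14. The cortical ranges overlapped (1204 to 1292 at P1 and 1048 to 1214 at P14). In such bulk RNA, fewer cells of a type and less RNA per cell cannot be told apart. Many members are also expressed by neurons, and the part that any of these cells had in the differences between ages was not tested.

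**Figure D1:**
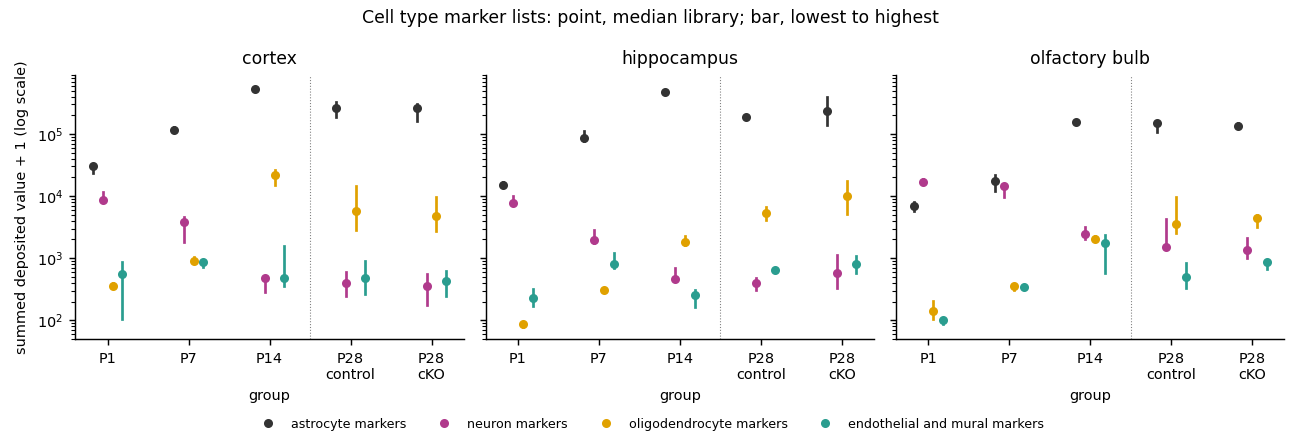
Summed level of 4 marker lists in each group (y axis, normalised read count + 1, log scale), 1 panel for each region; points are the median library and bars run from the lowest to the highest library. Neuron markers fall between P1 and P14 in all 3 panels while astrocyte markers rise, and the P28 tables, right of the dotted line, were scaled separately.

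Promoter sequence is shown for 4 members that changed in the same direction in all 3 regions, so that rising and falling members can be read side by side. The windows were picked so as to overlap no annotated exon. Each run is the 250 bases before the most upstream start site in RefSeq (GRCm38.p6, the same assembly as mm10; 2 start sites were listed for Sema6d and 4 for Sema4a), written 5′ to 3′ on the strand of the gene, and capitals mark each CG dinucleotide. Sema6d (chromosome 2, plus strand) and Sema4a (chromosome 3, minus strand) rose, and Epha3 (chromosome 16, minus strand) and Efnb2 (chromosome 8, minus strand) fell.
Sema6d, chr2:124089719-124089968: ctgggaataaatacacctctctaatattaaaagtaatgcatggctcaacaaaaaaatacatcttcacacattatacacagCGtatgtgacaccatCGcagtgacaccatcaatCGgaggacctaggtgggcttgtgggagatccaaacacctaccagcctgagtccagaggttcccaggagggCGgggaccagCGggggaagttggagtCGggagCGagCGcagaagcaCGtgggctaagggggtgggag
Sema4a, chr3:88461183-88461432: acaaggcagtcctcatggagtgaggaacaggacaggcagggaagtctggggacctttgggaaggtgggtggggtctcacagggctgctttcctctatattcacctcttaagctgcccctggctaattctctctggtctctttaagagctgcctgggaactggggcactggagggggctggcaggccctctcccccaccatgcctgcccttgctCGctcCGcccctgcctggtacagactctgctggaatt
Epha3, chr16:63864176-63864425: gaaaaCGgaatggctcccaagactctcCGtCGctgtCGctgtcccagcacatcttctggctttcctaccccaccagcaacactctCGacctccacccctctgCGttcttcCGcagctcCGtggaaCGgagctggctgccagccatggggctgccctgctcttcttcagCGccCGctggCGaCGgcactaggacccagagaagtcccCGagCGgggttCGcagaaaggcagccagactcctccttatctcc
Efnb2, chr8:8661243-8661492: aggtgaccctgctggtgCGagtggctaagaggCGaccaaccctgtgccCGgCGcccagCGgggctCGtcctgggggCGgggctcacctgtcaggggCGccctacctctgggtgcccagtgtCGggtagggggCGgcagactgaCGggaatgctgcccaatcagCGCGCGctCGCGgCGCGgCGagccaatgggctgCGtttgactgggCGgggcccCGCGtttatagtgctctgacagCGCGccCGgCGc
The windows held 9, 2, 16 and 27 CG dinucleotides in that order. RefSeq promoters were matched for 59 of the 69 members, 75 windows in all, of which 98.7% held a CG, with a median of 15 (quartiles 8 and 23) against 92.1% and a median of 6 (quartiles 2 and 16) over 32851 windows of all genes. The 23 windows of members lower in all 3 regions had a median of 15. The 7 windows of members higher in all 3 regions came from 3 genes and had a median of 6.

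Between P1 and P14 most members fell, and far more fell than rose. In cortex 52 of the 59 members tested changed, 44 lower and 8 higher, where 64.4% of all genes tested changed (40.3% lower, 24% higher). In hippocampus 36 of 56 changed, 33 lower and 3 higher, beside 49.5% of all genes (28.5% lower, 21% higher). In olfactory bulb 39 of 55 changed, 29 lower and 10 higher, beside 56.1% of all genes (31.4% lower, 24.8% higher). The share of members that fell was over the share of all genes in each region, and the share that rose was under it. The median member difference (P14 minus P1, log2 of the level + 1) was −1.81 (cortex), −1.93 (hippocampus) and −1.68 (olfactory bulb), against −0.27, −0.29 and −0.24 over all genes. With members that had no P14 read set at their bound, the hippocampal median was −1.85. Genes were called with limma at a Benjamini-Hochberg adjusted p under 0.05, over all genes with a mean level of at least 10 in the table. Another scaling of the cortical libraries (TMM) moved the all-gene median to 0.005 and the calls over all genes from 2843 higher and 4765 lower to 3801 higher and 3655 lower, and gave 9 members higher and 42 lower. With a minimum mean of 100, fewer members could be tested, and 26 of 27, 23 of 28 and 21 of 27 changed in cortex, hippocampus and olfactory bulb.

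Falls outnumbered rises among ligands and among receptors. Of the ligands tested, 24 of 30 fell and 4 rose in cortex, 17 of 28 fell and 2 rose in hippocampus, and 14 of 29 fell and 6 rose in olfactory bulb. For receptors the counts were 20 of 29 lower and 4 higher, 16 of 28 lower and 1 higher, and 15 of 26 lower and 4 higher. Of all genes 40.3%, 28.5% and 31.4% were lower and 24%, 21% and 24.8% higher, in the same order. The family counts below rest on few members each and are to be read beside these shares. A mean over a whole table sets the filter, so a member that was high at a single age could pass through that age. Efna1, Efna3, Epha1, Epha2, Epha8, Epha10, Ntn5, Robo3, Sema3b and Sema3g were under it in the 3 age tables, Efna4, Robo4 and Sema3f also in hippocampus, and Ephb4, Robo4, Slit3 and Unc5b also in olfactory bulb.

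**Figure D2:**
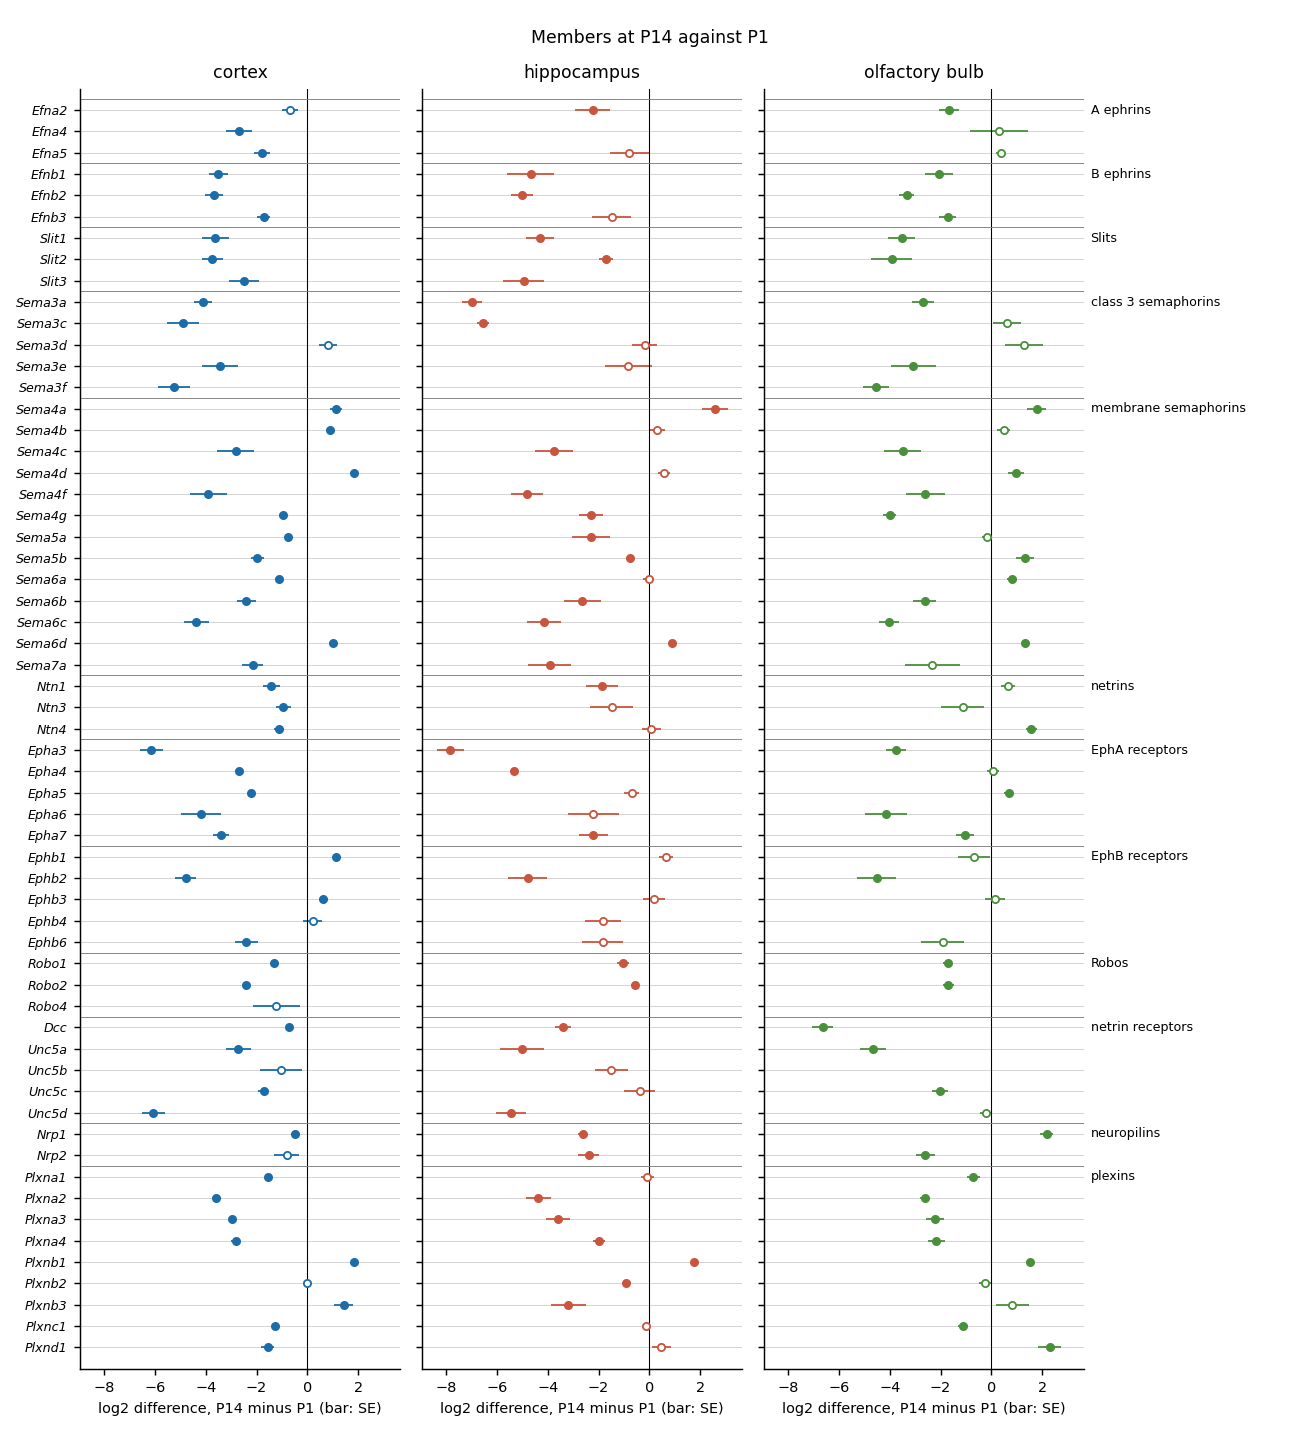
Difference between P14 and P1 for every member tested (x axis, log2 of the level + 1, P14 minus P1, bars are SE), grouped by family, 1 panel for each region; filled points passed limma at adjusted p under 0.05. Most points lie left of 0, with 44, 33 and 29 filled points to the left and 8, 3 and 10 to the right.

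All 5 EphA receptors tested fell in cortex. The other regions each had 3 of 5 lower, and olfactory bulb 1 higher. Epha4, a receptor that binds ephrins of both classes, was the highest member per exon length in hippocampus at P1. It had levels of 3211, 3988 and 3221 there at P1, 535, 613 and 588 at P7, and 69.9, 95.9 and 87.8 at P14 (log2 difference P14 to P1 −5.35, SE 0.15, adjusted p = 8.9e-10 in limma). Every library of each age was below every library of the age before. In olfactory bulb Epha4 was 234, 301 and 311 at P1 and 320, 218 and 368 at P14, ranges that overlap (0.07, SE 0.24, adjusted p = 0.81).

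Epha3, a receptor for A ephrins, fell in all 3 regions. Its levels in cortex went from 260, 235 and 188 at P1 to 2.27, 0.629, 1.89 and 5.71 at P14 (log2 difference −6.15, SE 0.45). In hippocampus they were 295, 331 and 350 at P1, and the 3 P14 libraries held a single Epha3 read between them. The ratio of the P1 to the P14 mean was 544, with a counting interval (exact Poisson, 95%) of 97.7 to 21502. In olfactory bulb Epha3 was 94.6, 92.0 and 86.6 at P1, higher in value at P7 (215, 170 and 126, adjusted p = 0.22) and 5.96, 2.76 and 11.1 at P14. Epha7 fell in all 3 regions too, with P1 and P14 means of 375 and 35.1 (cortex), 149 and 41.9 (hippocampus) and 88.2 and 45.3 (olfactory bulb). The last of these calls was lost without P1 replicate 2 (adjusted p = 0.083), P1 replicate 3 (0.077) or P14 replicate 1 (0.059).

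EphB receptors did not move as a family. Ephb2 fell in all 3 regions (log2 difference −4.80 in both cortex and hippocampus, −4.52 in olfactory bulb), and its cortical mean went from 96.1 to 2.94. Ephb1 rose in cortex, from 271, 217 and 212 at P1 to 483, 571, 413 and 595 at P14 (1.13, SE 0.14), after 166, 196 and 155 at P7. Its first step (−0.44, SE 0.15) lost its call without P1 replicate 1 or 2 or P7 replicate 1 or 3. In hippocampus Ephb1 was 243, 223 and 217 at P1 and 219, 454 and 460 at P14, and the difference did not pass (0.65, SE 0.26, adjusted p = 0.056). Ephb3 rose in cortex from a mean of 57.0 to 89.4.

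All 3 B ephrins fell in cortex and in olfactory bulb and 2 of 3 in hippocampus, and A ephrins fell in 2 of 3, 1 of 2 and 1 of 3 tests in cortex, hippocampus and olfactory bulb. The A ephrin tests are too few to set apart from the 40.3%, 28.5% and 31.4% of all genes that fell. Efnb2, a membrane ligand for EphB receptors and EPHA4, was at 559, 416 and 361 in cortex at P1 and 45.4, 13.2, 40.7 and 48.8 at P14 (−3.68, SE 0.35). It was 369, 403 and 298 in hippocampus at P1 and 22.6, 7.72 and 5.37 at P14 (−5.02, SE 0.43). In olfactory bulb, where it was the highest member per exon length at P1, it was 1868, 1961 and 2047 and then 290, 181 and 136 (−3.34, SE 0.29). No P14 library came near a P1 library in any region. Efna5, a ligand of EphA receptors, fell in cortex from 122, 95.5 and 69.5 to 17.0, 43.4, 26.8 and 22.8. In olfactory bulb it dipped at P7 instead, with 343, 477 and 449 at P1, 147, 208 and 171 at P7 and 543, 622 and 465 at P14. Both steps passed the test there, −1.27 (SE 0.19) and then 1.63 (SE 0.19).

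Secreted class 3 semaphorins, most of which signal through neuropilin and A plexin receptors, fell in 4 of 5 tests in cortex, while hippocampus had 2 of 4 lower and olfactory bulb 3 of 5, and none rose. Sema3c was the second highest member per exon length in hippocampus at P1. Its levels there were 2488, 2708 and 2877 at P1, 152, 168 and 120 at P7 and 19.3, 33.1 and 32.2 at P14, so that the larger step on the log2 scale came before P7 (−4.20, SE 0.22, against −2.36, SE 0.22, after it). In cortex it went from 304, 231 and 361 to 14.4, 1.26, 29.6 and 7.79. The olfactory bulb differed in form, with 57.7, 51.1 and 38.1 at P1, 347, 201 and 112 at P7, and 53.7, 40.0 and 190 at P14. That rise to P7 passed (2.02, SE 0.54, adjusted p = 0.038 in limma) and lost its call without any 1 of P1 replicates 1, 2 and 3 or P7 replicates 1 and 2 (adjusted p = 0.082 to 0.17).

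Sema3a, the founding repellent of the class, fell in all 3 regions. It was at 166, 151 and 134 in cortex at P1 and 7.57, 5.03, 15.1 and 5.71 at P14. Hippocampal libraries had 249, 346 and 288 at P1 and 3 reads in all at P14, a ratio of 222 with a counting interval of 76.0 to 1077. Olfactory bulb levels were 185, 221 and 227 at P1 and 71.6, 15.2 and 29.2 at P14. Sema3f had no read in any cortical P14 library and against its P1 mean of 38.3 it was at least 20.3-fold lower, taking 3 reads in a library as the floor.

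Membrane semaphorins made up 4 of the 8 cortical, 2 of the 3 hippocampal and 5 of the 10 olfactory bulb members that rose. In cortex 4 of 13 rose and 9 fell, in hippocampus 2 rose and 8 fell, and in olfactory bulb 5 rose and 5 fell. Of all genes tested, 24%, 21% and 24.8% rose and 40.3%, 28.5% and 31.4% fell, in the same order. The rises of these 13 members were not tested against those shares. Sema6d, a transmembrane ligand of PLXNA1 and PLXNA4, was the highest of all members per exon length at P14 in the 3 regions, at 244 ± 7.25 (SD, n = 4), 275 ± 26.2 (n = 3) and 248 ± 27.3 (n = 3) normalised reads per kb. Cortical levels were 1072, 1395 and 1436 at P1, 3207, 3520 and 3220 at P7, and 2484, 2620, 2552 and 2657 at P14, so that the P7 libraries were highest. In hippocampus they were 1389, 1884 and 1512, then 2435, 2365 and 2579, then 3186, 2633 and 2891. In olfactory bulb they were 910, 1183 and 1036, then 921, 1410 and 953, and reached 2715, 2848 and 2295 at P14. The P14 to P1 difference was 1.00 (SE 0.10), 0.87 (SE 0.13) and 1.33 (SE 0.18). Quantile normalization cut the hippocampal value to 0.24 (adjusted p = 0.085).

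Sema4a and Sema4d, transmembrane ligands that bind B plexins, rose as well. Sema4a was at 52.0, 33.7 and 31.0 in cortex at P1 and 107, 88.7, 58.7 and 90.9 at P14. In hippocampus it went from 9.26, 7.13 and 7.99 to 60.2, 25.4 and 98.5, and in olfactory bulb from 18.3, 25.1 and 27.6 to 53.7, 75.8 and 142. Sema4d rose in cortex from 79.8, 89.4 and 97.8 to 341, 287, 303 and 345 (1.83, SE 0.13) and in olfactory bulb from 44.8, 58.1 and 37.5 to 115, 81.3 and 80.5 (0.97, SE 0.32, adjusted p = 0.025). That call was lost without P1 replicate 1 (adjusted p = 0.067), P1 replicate 3 (0.095) or P14 replicate 1 (0.068). In hippocampus the Sema4d ranges touched (131, 127 and 87.9, then 191, 192 and 131), and the difference did not pass (0.57, SE 0.24, adjusted p = 0.07). Sema4b rose in cortex, from 115, 120 and 94.4 to 204, 196, 191 and 216, and did not pass in hippocampus (0.29, SE 0.31) or olfactory bulb (0.48, SE 0.25). Sema4d is also known as an oligodendrocyte product, and oligodendrocyte markers rose with it from 336 to 394 at P1 to 15297 to 26088 at P14 in cortex. Their part in that rise was not tested.

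Sema4g, Sema6b, Sema6c, Sema4c and Sema4f fell in the 3 regions. Sema4g in olfactory bulb was at 259, 211 and 271 at P1, 125, 129 and 212 at P7, and 13.9, 15.2 and 13.9 at P14 (−4.01, SE 0.25). In cortex it fell from a mean of 261 to 134 and was at 127 at P7. Mean Sema6c went from 57.4 to 2.28 in cortex, and olfactory bulb had 56.1 and 2.51.

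Plexins, the semaphorin receptors, went both ways. Plxna2, Plxna3 and Plxna4 fell in all 3 regions, and Plxnb1 rose in all 3. Plxna2 levels were 1615, 1207 and 1168 in cortex at P1 and 107, 83.0, 130 and 121 at P14 (−3.58, SE 0.17, adjusted p = 9.1e-10 in limma). Hippocampal Plxna2 went from 1551, 2047 and 1736 to 105, 28.7 and 192, and that of olfactory bulb from 1249, 1170 and 1395 to 191, 251 and 178. Plxna4 fell from a mean of 1545 to 209, 970 to 244 and 677 to 159 in the same order. No P14 library of these genes reached a P1 library.

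Plxnb1 encodes the receptor of SEMA4D. It stood at 518, 550 and 545 in cortex at P1, 871, 1072 and 812 at P7, and 1931, 1799, 1871 and 2084 at P14. Hippocampal levels were 305, 376 and 316, then 603, 627 and 618, then 1044, 1205 and 1121. In olfactory bulb they were 172, 200 and 197, then 232, 287 and 201, then 566, 549 and 533. The log2 difference from P1 to P14 was 1.83 (SE 0.10), 1.76 (SE 0.13) and 1.53 (SE 0.16), and both steps passed in cortex and hippocampus. In olfactory bulb the second step passed (1.21, SE 0.16). Exons of Gm7628 overlap Plxnb1 in antisense, and whether counting used strand is not given in the sources used here. Plxnb2, another B plexin, overlapped between P1 (500, 543 and 534) and P14 (479, 507, 579 and 505) in cortex (−0.03, SE 0.11, adjusted p = 0.85), and fell in hippocampus from a mean of 677 to 366.

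Both neuropilins were high at P1 in hippocampus and fell there. Nrp1, the co-receptor for SEMA3A, was at 1264, 1955 and 1317 at P1, 390, 427 and 390 at P7 and 274, 193 and 256 at P14 (−2.63, SE 0.19). Nrp2, the co-receptor that prefers SEMA3F, went from 449, 668 and 376 to 46.2, 191 and 86.0 in hippocampus, and from a mean of 377 to 68.0 in olfactory bulb. In cortex its P1 libraries were spread over 27.3, 167 and 173, and the difference did not pass (−0.81, SE 0.49, adjusted p = 0.17).

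All 3 Slits fell in cortex and hippocampus and both that were tested in olfactory bulb, and Robo1 and Robo2 fell in each region. Robo4, known from blood vessels, was tested in cortex alone and did not pass (1.99, 17.1 and 19.2 at P1 and 0 to 14.5 at P14; adjusted p = 0.27 in limma). Slit2 was at 169, 185 and 224 in cortex at P1 and 6.43, 17.6, 31.9 and 8.31 at P14. In hippocampus it fell from 540, 451 and 399 to 158, 86.0 and 201 (−1.71, SE 0.28, beside −3.75, SE 0.40, in cortex; the difference between regions was not tested). Robo2, a Slit receptor of migrating neurons and axons, was the third highest member per exon length in olfactory bulb at P1, with 3956, 3440 and 3616, then 2105, 1962 and 3020, then 1592, 990 and 901. In hippocampus Robo2 went from 354, 415 and 368 to 262, 251 and 247 (−0.58, SE 0.14, adjusted p = 0.0046). Robo1 in hippocampus fell before P7, from 536, 608 and 452 to 207, 239 and 289, and was at 265, 181 and 340 at P14 (second step 0.07, SE 0.23).

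Of the netrin receptors, 4 of 5 fell in cortex. Falls numbered 3 of 5 in hippocampus and, in olfactory bulb, 3 of 4. Dcc, the receptor for attraction by netrin 1, was at 2821, 3830 and 3533 in olfactory bulb at P1, 323, 305 and 440 at P7 and 69.6, 15.2 and 31.9 at P14 (−6.65, SE 0.41, adjusted p = 3.9e-07 in limma). In hippocampus it went from 2088, 1940 and 1865 to 374, 267 and 243 by P7, and the later step did not pass (−0.66, SE 0.32, adjusted p = 0.14). In cortex Dcc went from 414, 352 and 363 to 242, 222 and 226 and then 235, 269, 171 and 249 (−0.72, SE 0.14). Unc5d, a repulsive netrin receptor of cortical neurons, was at 478, 269 and 294 in cortex at P1 and 10.2, 1.89, 6.62 and 1.56 at P14 (−6.07, SE 0.44), and fell in hippocampus from 891, 1232 and 982 to 47.3, 41.9 and 5.37. In olfactory bulb it was 342, 438 and 444 at P1 and 477, 284 and 312 at P14, and the ranges overlap (−0.22, SE 0.24, adjusted p = 0.46). Of the netrins themselves, Ntn1 and Ntn3 had P14 means between 4.43 and 44.3. Ntn4 had P14 means between 42.4 and 161, and per exon length it was the tenth highest member in olfactory bulb at P14, with 43.1 per kb (42.5 to 44.2 over the libraries).

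Some members fell by more than the median neuron marker. On the log2 scale the median neuron marker fell by 4.52 in cortex, by 4.22 in hippocampus and, for olfactory bulb, by 3.64. In cortex 4 of the 44 members that fell went further (Epha3, Ephb2, Sema3c and Unc5d), in hippocampus 10 of 33 and in olfactory bulb 7 of 29. These are differences between means of log2 values, on which a library with 0 reads weighs heavily. Among those counted, hippocampal Efnb1 had 0, 13 and 0 reads at P14. Olfactory bulb Epha6 had 0, 0 and 8, and Slit2 had 2, 11 and 0. The placing of these is uncertain. The P14 reads were too few to place cortical Sema3f, hippocampal Sema4f, Slit1 and Slit3, and olfactory bulb Sema3f and Unc5a, whose lower bound fell short of the marker median. The other 39, 20 and 20 fell by less. The share of all falling genes that went further than the marker median was not counted. Single neuron markers lie on both sides of their median. The counts therefore do not set members apart from neuron markers or from other genes.

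**Figure D3:**
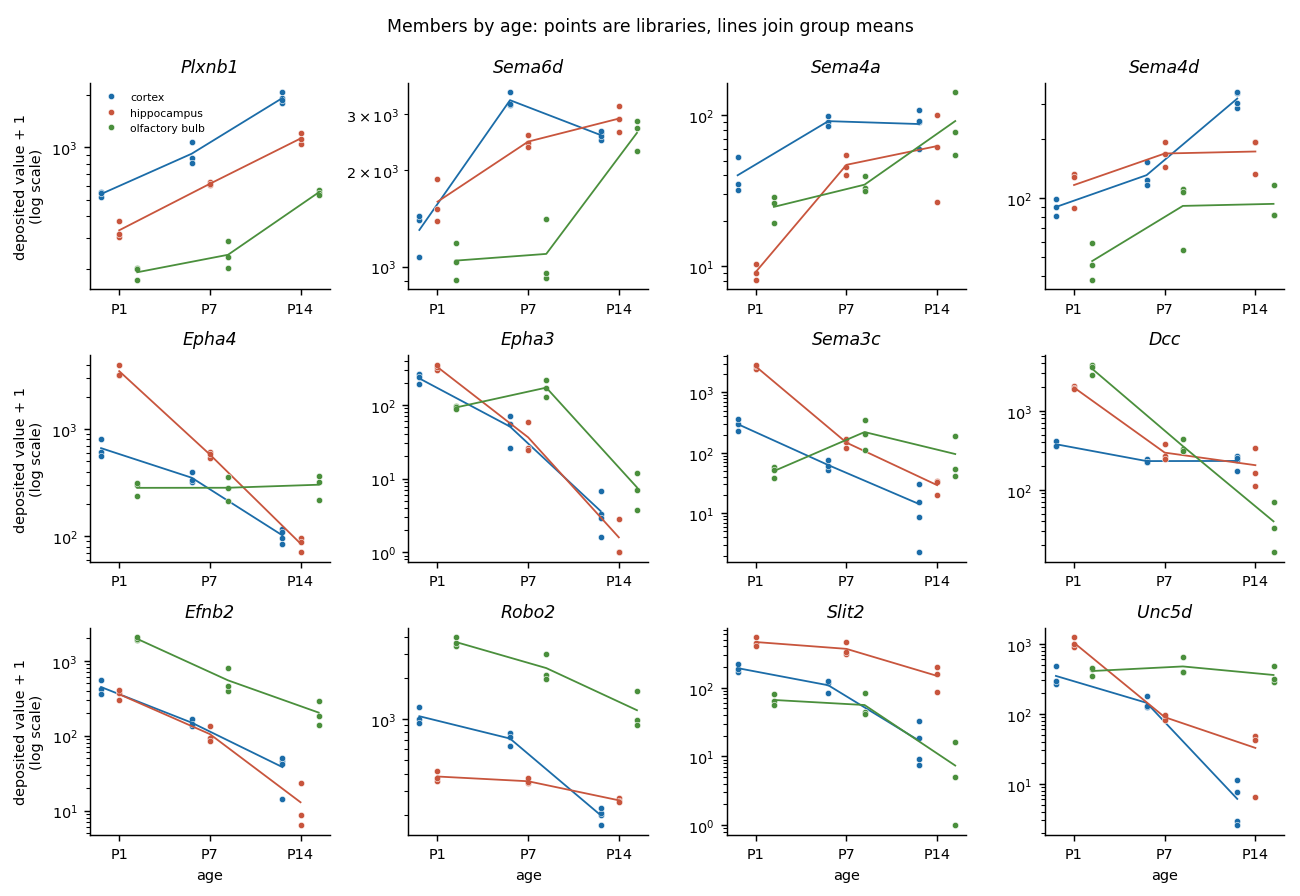
Levels of 12 members at P1, P7 and P14 (y axis, normalised read count + 1, log scale); points are libraries, lines join group means and colours are regions, whose tables were scaled separately. The upper row holds the members that rose (Plxnb1, Sema6d, Sema4a, Sema4d), and the other panels show falls such as Dcc in olfactory bulb from a mean of 3394 to 38.9.

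Over the 53 members tested in all 3 regions, 20 were lower at P14 in each (37.7%, beside 17.8% of 10838 genes) and 3 were higher in each (Plxnb1, Sema4a and Sema6d, 5.66% beside 14%). Another 7 passed in opposite directions in at least 2 regions, which is 13.2% beside 3.4% of genes. They were Epha5, Nrp1, Ntn4, Plxnb3, Plxnd1, Sema5b and Sema6a. In 6 of these 7 the rise was in olfactory bulb, and Plxnb3 was the other. Each region was tested within its own table, so the difference between regions was not tested.

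Nrp1 in olfactory bulb was at 70.3, 59.0 and 68.4 at P1, 106, 199 and 97.3 at P7 and 278, 332 and 296 at P14 (2.18, SE 0.26), while hippocampal Nrp1 fell as given above. The P14 means were 237, 241 and 302 in cortex, hippocampus and olfactory bulb, in tables scaled separately. Cortical Nrp1 passed from P1 to P14 (−0.48, SE 0.17, adjusted p = 0.025) with ranges that overlap, and lost that call under TMM (−0.20, adjusted p = 0.32) and without P1 replicate 2 or 3 or P14 replicate 1 or 4 (adjusted p = 0.052 to 0.15). Ntn4, a laminin-related netrin found in basement membranes, rose in olfactory bulb from 47.7, 69.1 and 46.9 to 159, 165 and 160 (1.57, SE 0.22) and fell in cortex from 77.6, 94.2 and 109 to 42.0, 39.6, 55.2 and 32.7 (−1.13, SE 0.20). Plxnd1, an endothelial receptor of SEMA3E, rose in olfactory bulb from 6.81, 8.81 and 9.38 to 25.8, 82.7 and 40.3 and fell in cortex from 150, 206 and 212 to 53.3, 53.5, 73.5 and 73.2. NRP1, netrin 4 and plexin D1 are all known from vessels. The summed endothelial and mural markers of olfactory bulb went from 85.0 to 104 at P1 up to 572 to 2362 at P14, and their part in these rises was not tested.

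Sema6a, a transmembrane ligand of A plexins, had its highest mean at P7 in each region. It was the highest member per exon length in cortex at P1, with levels of 1063, 1383 and 1405, then 1842, 1652 and 1450 at P7 and 659, 508, 535 and 623 at P14. Hippocampal levels were 602, 685 and 578, then 1365, 1416 and 1487, then 865, 417 and 620. Olfactory bulb libraries had 369, 404 and 333, then 946, 874 and 592, then 720, 714 and 536. Its P14 to P1 difference was −1.14 (SE 0.13) in cortex and 0.82 (SE 0.19) in olfactory bulb, and in hippocampus it was −0.03 (SE 0.21), with a sign that turned under median-ratio scaling (0.04). Sema5b, a membrane semaphorin with thrombospondin repeats, fell in cortex from 276, 322 and 319 to 60.5, 51.6, 87.4 and 128 and rose in olfactory bulb from 156, 246 and 197 to 877, 347 and 390. Epha5 fell in cortex from 870, 1274 and 1291 to 289, 221, 217 and 243, and rose in olfactory bulb from 399, 374 and 390 to 745, 589 and 543. Plxnb3 was low throughout and rose in cortex from 6.53, 9.07 and 8.98 to 44.6, 26.4, 17.3 and 14.5. In hippocampus it went from 12.5, 6.24 and 15.4 to 1 read in all 3 P14 libraries, a ratio of 30.9 with a counting interval of 5.54 to 1220.

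**Figure D4:**
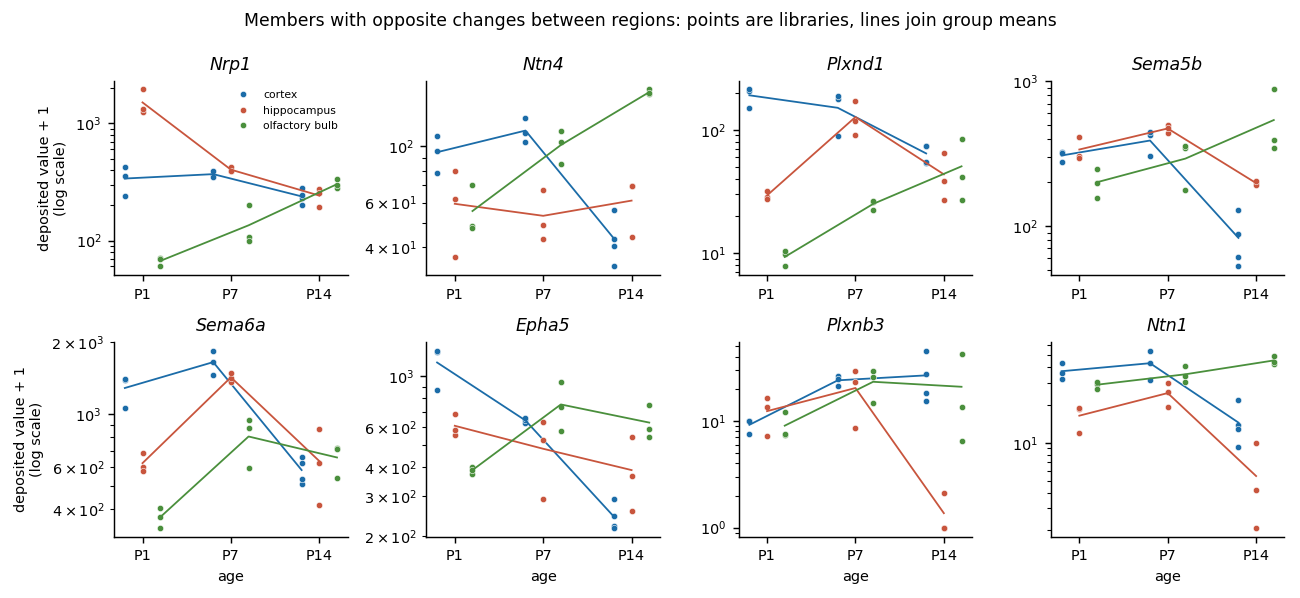
Levels of the 7 members that passed in opposite directions between regions and of Ntn1, whose P1 and P14 libraries were apart in opposite directions without passing in olfactory bulb (y axis, normalised read count + 1, log scale); points are libraries, lines join group means and colours are regions, whose tables were scaled separately. In the Nrp1, Ntn4, Plxnd1 and Sema5b panels the olfactory bulb line rises from P1 to P14 while the cortical line falls.

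The week of the change differed among members. Between P1 and P7, 31 members changed in cortex (22 lower and 9 higher, beside 33.7% of all genes, 18.1% lower and 15.6% higher). In hippocampus 19 did (13 lower and 6 higher, beside 18.1%, 6.92% lower and 11.2% higher). In olfactory bulb 12 did (7 lower and 5 higher, beside 10.6%, 2.98% lower and 7.59% higher). Between P7 and P14 the cortical count was 42 (39 lower and 3 higher, beside 49.8%, 31.3% lower and 18.6% higher). For hippocampus it was 32 (31 lower and 1 higher, beside 30.1%, 17.7% lower and 12.5% higher), and for olfactory bulb 32 (25 lower and 7 higher, beside 47%, 26.6% lower and 20.4% higher). A fit of P1 and P7 libraries alone gave 38 members in hippocampus and 29 in olfactory bulb for the first week. Leaving out 1 library moved the first-week count in olfactory bulb to 6 (without P1 replicate 3, P7 replicate 1 or P7 replicate 2) and the second-week count in hippocampus to 21, 21 and 20 (without P7 replicate 1, 2 and 3). In cortex 15 members passed as lower in both weeks, in hippocampus 9 and in olfactory bulb 4 (Dcc, Efnb2, Plxna2 and Robo1). The share of all genes was not counted for this pattern or for the peaks given next, so neither is set apart from other genes. A peak at P7, higher in the first week and lower in the second, passed for Ephb3, Plxnc1 and Sema6d in cortex and for Plxnc1, Plxnd1 and Sema6a in hippocampus. One of the 2 steps was lost without single libraries for Ephb3 in cortex (P7 replicate 1 or 2, P14 replicate 1 or 4), for Plxnc1 in cortex (P1 replicate 1, P7 replicate 1 or 2) and for Plxnd1 (P7 replicate 3, adjusted p = 0.054).

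Plxnc1, the receptor of SEMA7A, was at 330, 385 and 395 in cortex at P1, 578, 595 and 457 at P7 and 146, 182, 122 and 167 at P14. Hippocampal Plxnc1 followed with 255, 248 and 192, then 390, 392 and 371, then 229, 205 and 190. Plxnd1 in hippocampus rose from 27.8, 26.7 and 30.7 to 117, 89.5 and 171 and returned to 25.8, 37.5 and 64.5. In that region the summed endothelial and mural markers were 170 to 322 at P1, 705 to 1195 at P7 and 163 to 303 at P14, and their part in this peak was not tested. Ephb3 in cortex was 61.4, 55.2 and 54.4, then 129, 136 and 119, then 67.0, 105, 105 and 81.0.

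Partners of the guidance pathways were read from a list of 27 surface and secreted proteins, all tested, and a list of 54 intracellular ones. Of the first, 16 fell and 6 rose in cortex (59.3% and 22.2%, beside 40.3% and 24% of all genes tested), 17 fell and 7 rose in hippocampus (63.0% and 25.9%, beside 28.5% and 21%), and 11 fell and 10 rose in olfactory bulb (40.7% and 37.0%, beside 31.4% and 24.8%). Of the second, 26 of 52 tested fell and 9 rose in cortex (50% and 17.3%), 18 of 50 fell and 13 rose in hippocampus (36% and 26%), and 22 of 50 fell and 14 rose in olfactory bulb (44% and 28%), beside the same shares of all genes. The partners with the largest falls in each region are named here. Islr2 (log2 difference −6.36 in cortex and −7.35 in hippocampus), Dpysl5, a relative of the semaphorin effector CRMP2 (−6.16 in cortex), the netrin antagonist Draxin (−5.89 in cortex), Cntn2 (−7.04 in hippocampus and −6.50 in olfactory bulb), L1cam (−5.40 and −4.32) and Crmp1 (−3.90 in olfactory bulb) led the falls. Rises were led by Ngef, the exchange factor ephexin that EPHA4 activates (2.01 in cortex and 4.98 in hippocampus), the adhesion molecule Nrcam (1.77 and 3.06), Ptch1 (1.99 in cortex), Bmpr1b (2.95 in hippocampus and 3.72 in olfactory bulb), Chl1 (3.61 in olfactory bulb) and Cntn1 (2.82 in olfactory bulb). Chl1 passed as lower in the other regions (−1.75 in cortex and −1.89 in hippocampus). In hippocampus mean Ngef rose from 5.48 to 181 while mean Epha4 fell from 3473 to 84.5. Olfactory bulb Ngef also rose, from a mean of 4.5 at P1 to 24.9 at P7 (2.32, adjusted p = 0.012 in limma). Epha4 was not called there at either step. A link between the 2 genes was not tested.

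At P28 the question was whether loss of Gabbr1 changes these genes. Gabbr1 itself was at 927 to 1930 in cortical controls and 89.8 to 211 in cortical cKO libraries (log2 difference −3.45, SE 0.29, adjusted p = 4.4e-05 in limma). In hippocampus it was 780 and 824 against 152 to 380 (−1.84, SE 0.39, adjusted p = 0.94), and in olfactory bulb 184 to 318 against 63.6 to 99.5 (−1.48, SE 0.33, adjusted p = 0.88). The groups were apart in each region, and the test across all genes called Gabbr1 only in cortex.

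No member passed the test between cKO and control. Of 41, 46 and 49 members tested in cortex, hippocampus and olfactory bulb, 0 passed the adjusted threshold in limma, where 0.00982%, 0% and 0% of all genes did, and 0 passed with edgeR or DESeq2 on the read counts recovered from the values. At an unadjusted p under 0.05 there were 1, 2 and 2 members, beside 2.17%, 2.54% and 3.02% of genes. The SE of a member's difference had a median of 0.41, 0.54 and 0.42 on the log2 scale (ranges 0.16 to 1.42, 0.30 to 1.45 and 0.21 to 1.90), which sets the size of difference that could be detected.

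In cortex Plxna1, a plexin with neuropilins as co-receptors, had the smallest p (−1.03, SE 0.43, unadjusted p = 0.028, adjusted p = 1.00 in limma). Controls lay at 78.2 to 99.6 and cKO libraries at 14.6 to 72.7, and it was the single member of 41 whose groups did not overlap. Over all genes 1.03% had every cKO library under every control and 0.864% above. Sema6d stood at 1661 ± 78.0 (SD, n = 4) in controls and 1550 ± 131 (n = 4) in cKO, and Plxnb1 at 687 ± 156 and 700 ± 139.

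In hippocampus the cKO libraries lay above both controls for 12 of 46 members and under both for 1, Ephb4, where 7.08% of all genes lay above and 7.92% under. The 12 were Epha4, Epha5, Plxna3, Plxnb3, Robo1, Sema3d, Sema4a, Sema4d, Sema4g, Sema5b, Sema6d and Unc5c. Without cKO replicate 2, the library with little Rn45s, a count chosen after the data were seen gave 13 above and 1 under, beside 11% and 11.5%. Sema4a was at 61.8 and 65.8 in controls and 97.8 to 130 in cKO (0.81, SE 0.35, unadjusted p = 0.046, adjusted p = 0.94), and Sema4d at 136 and 144 against 175 to 318 (0.78, SE 0.34). Oligodendrocyte markers summed to 4127 and 6638 in these controls and 5094 to 17622 in cKO, and choroid plexus and ependymal markers to 65636 and 136060 against 10598 to 125380. Microglia markers summed to 134 and 167 in controls and 223 to 928 in cKO, so every cKO library lay above both controls there too, and the ranges of the other marker lists overlapped. The part of these cells in the difference was not tested.

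In olfactory bulb Plxna2 was at 331 to 569 in controls and 248 to 279 in cKO (−0.73, SE 0.26, unadjusted p = 0.018, adjusted p = 0.88). Slit1 had a control range of 1.89 to 54.5 against 0 to 1.99 in cKO, and the groups overlap (−3.19, SE 1.41). The groups did not overlap for 3 members above (Epha4, Ephb3 and Ntn1) and 3 under (Plxna2, Robo2 and Sema6a), beside 5.3% and 4.71% of genes. Without control replicate 2, also chosen after the data were seen, the counts were 4 and 5, beside 9.2% and 8.22%.

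**Figure D5:**
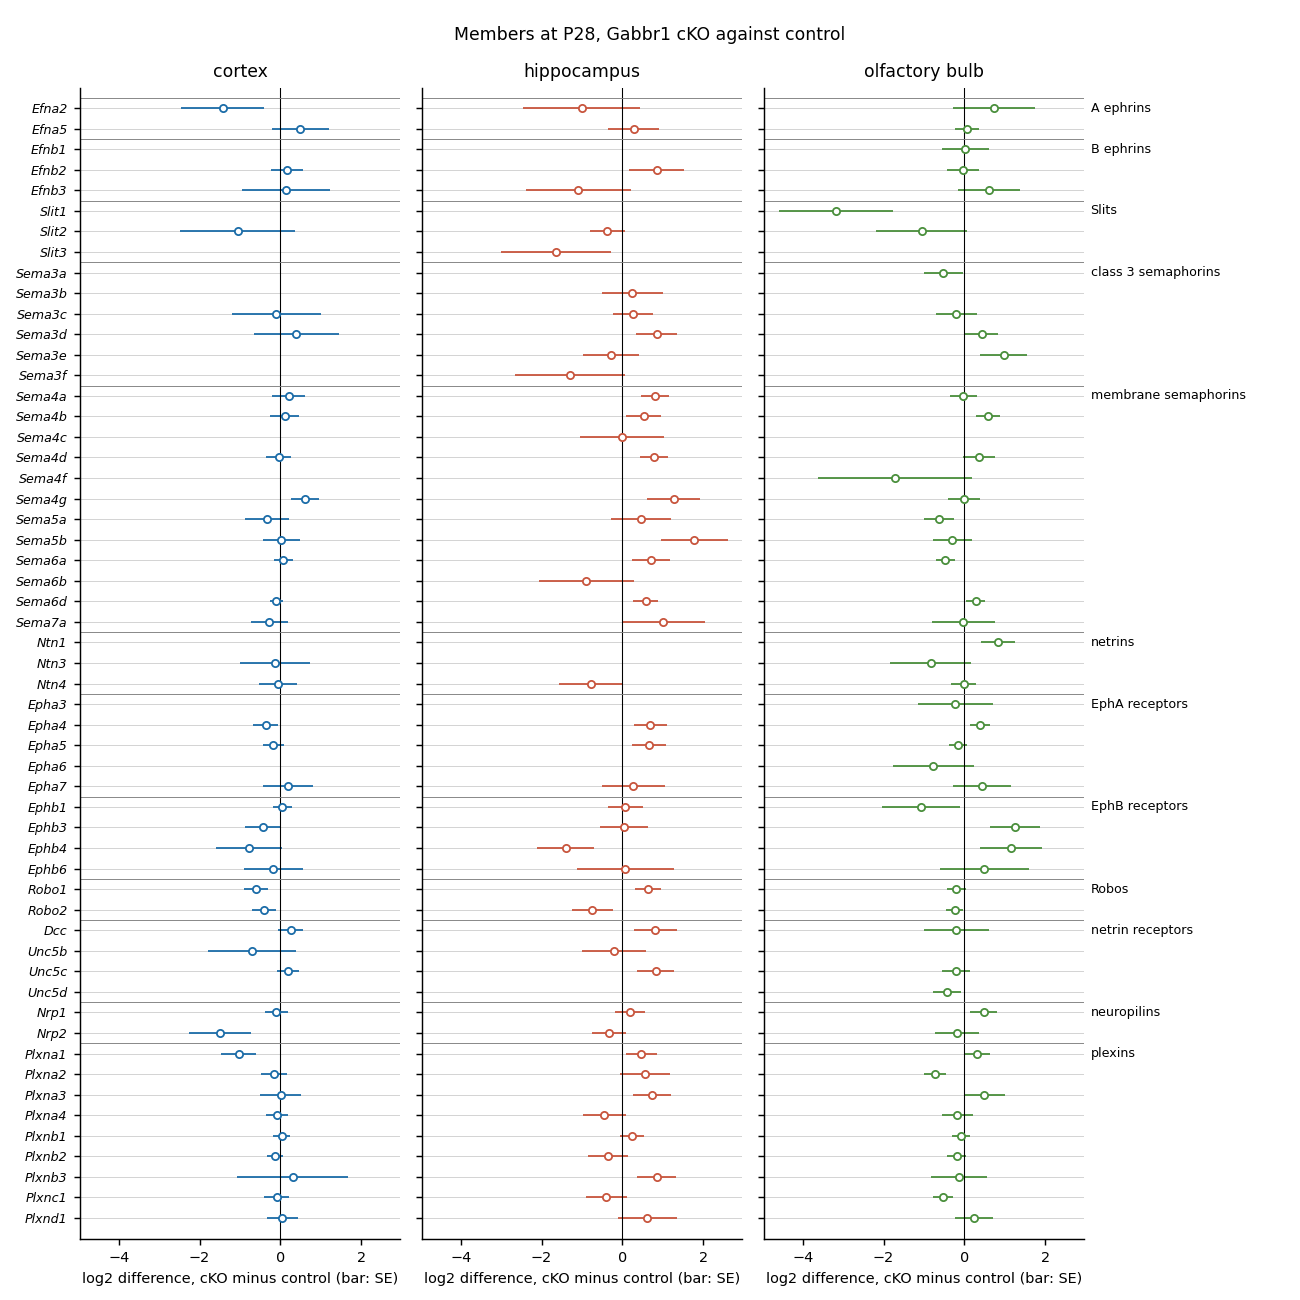
Difference between Gabbr1 cKO and control at P28 for every member tested (x axis, log2 of the level + 1, cKO minus control, bars are SE), grouped by family, 1 panel for each region. All points are open because no member passed limma at adjusted p under 0.05, and the median difference is −0.09 in both cortex and olfactory bulb and 0.27 in hippocampus.

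Sema6d was the highest member per exon length in each of the 6 P28 groups, from 115 ± 13.0 (SD, n = 2) normalised reads per kb in hippocampal controls up to 205 to 244 over the 3 olfactory bulb cKO libraries. Plxnb1 was second in both cortical groups (71.6 ± 16.2 and 72.9 ± 14.5, n = 4 each) and in hippocampal cKO (87.0 ± 22.0, n = 4). In olfactory bulb Efna5 and Sema5b followed instead, at 95.8 ± 36.8 and 121 ± 106 in controls (n = 3) and 95.5 ± 9.10 and 77.5 ± 9.43 in cKO (n = 3), and these neighbours did not differ beyond their spread.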

How the data were processed

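RNA-seq libraries were made with the NuGEN Trio kit from total RNA of dissociated tissue, per the labels' protocols. The authors deposited 6 tables, 1 for the ages and 1 for P28 in each region, whose values are a signal: read counts divided by 1 size factor per library, which the low values show, since dividing by the smallest step returned whole reads within 0.01 for all values. This check is weak for replicate 2 of the olfactory bulb P28 cKO group, whose step is nearly 1. STAR 2.5.0a, DESeq2 1.20.0, FastQC, MultiQC and mm10 are named per the submitters' processing notes, while the counting program, annotation and strand setting are not given in the sources used here. With no strand setting, reads of a member and of a gene on the other strand cannot be told apart, and exons of Ephb1, Plxna1, Plxna4, Plxnb1, Sema4c, Unc5a and Unc5c overlap such a gene.

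The main test was limma 3.58.1 in R 4.3.3 (lmFit, eBayes with trend) on log2(value + 1), over genes with a table mean of at least 10, with Benjamini-Hochberg adjustment over all of them. Ages were fitted together within a region and genotypes within a P28 table, without covariates. Fold changes on this scale understate the change of low genes. A member was called at adjusted p under 0.05. Alternatives were pseudocount 8, no filter, a minimum mean of 100, TMM, quantile and median-ratio scaling, no trend, fits of 2 ages, edgeR 4.0.16 and DESeq2 1.42.0 on recovered reads, leaving out each library, and the tamoxifen label as a covariate in cortex at P28. The fitting code was tested on simulated data.

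Libraries were grouped by their labels and numbered in accession order. Levels per kb divide a level by the summed exon length in GENCODE. Promoters were those of RefSeq on GRCm38.p6, and gene loci came from GENCODE on the same assembly. Members and lists were chosen with earlier results of these data known. Named with values were the 8 largest rises and falls from P1 to P14 in each region and the 3 largest at each step, among members that passed, had a table mean of at least 50 and kept their sign under the scalings. Members that passed in all 3 regions or in opposite directions, the smallest P28 p-values, the highest level in a family, and the 3 leading pathway partners were also named. Other members (among them Plxnc1, Sema3f, Plxnb2 and Ntn1) were named after their values were seen. Counting intervals and the floor of 3 reads cover counting error only, since no molecular identifiers are given.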

Additional observations from a re-analysis of the deposited data

Results flagged for a closer look

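For 8 members every P14 library lay above every P1 library in 1 region and below every P1 library in another. The share of all genes with this pattern was not counted, so whether 8 is many cannot be said. Between P1 and P14, 88.1%, 69.6% and 72.7% of members tested lay apart in cortex, hippocampus and olfactory bulb. The difference between regions was not tested, and the tables were scaled separately. Values are log2 differences, P14 minus P1. Epha5 was at −2.22 in cortex and −0.702 in hippocampus, and at 0.676 in olfactory bulb. Nrp1 was at −2.63 in hippocampus and 2.18 in olfactory bulb. Ntn1, the netrin that attracts through DCC, was at −1.42 in cortex and −1.85 in hippocampus, and at 0.642 in olfactory bulb, where its libraries stood at 28.7, 29.5 and 25.9 at P1 and 41.7, 48.2 and 43.0 at P14. The olfactory bulb value did not pass the test (adjusted p = 0.075 in limma), and the hippocampal one lost its call without P1 replicate 1, 2 or 3 or P14 replicate 2 (adjusted p = 0.051 to 0.098). Ntn4 was at −1.13 in cortex and 1.57 in olfactory bulb. Plxnb3 was at 1.42 in cortex and −3.19 in hippocampus. Plxnd1 was at −1.57 in cortex and 2.29 in olfactory bulb. Sema5b was at −1.97 in cortex and −0.755 in hippocampus, and at 1.32 in olfactory bulb. Sema6a was at −1.14 in cortex and 0.822 in olfactory bulb. In the 4 groups of 4 libraries, each tested member was checked for a library far from the others, 186 checks in all, and 12 were found. Chance finds about 1 in 20, and 12 in 186 is near that rate with the 4 groups pooled. Any single find may be chance. The pooled rate cannot decide this, since the finds were uneven, with most in the P28 cKO groups. In hippocampal P28 cKO replicate 2, the library with little Rn45s, Epha5 was at 304.8 (136 to 149 in the others), Sema5b at 553.2 (56.2 to 131), Sema7a at 54.89 (none of the others above 12) and Plxnb2 at 187.8 (545 to 581). In hippocampal P28 cKO replicate 4, Ephb4 was at 23.1 (10.7 to 11.6). In cortical P28 cKO libraries, Dcc was at 195.2 (82.9 to 91.1) and Plxnb2 at 295.1 (232 to 236) in replicate 1, Nrp2 at 0.7992 (18.9 to 22.4) in replicate 3, and Plxnb3 at 57.57 (0 to 8.79) and Sema3c at 62.36 (5.59 to 9.44) in replicate 4. That replicate 4 is the only cortical cKO library labelled with tamoxifen. Control replicates 3 and 4, which share the label, had Plxnb3 at 15.3 and 44.9, against 2.11 and 0 in the other controls. Their Sema3c was at 32.9 and 42.2, against 38.0 and 0. The part of the label in these single values was not tested. Efna2 was at 65.77 (5.84 to 11.1) in cortical P28 control replicate 3, and Sema3d at 42.14 (25.4 at most in the others) in cortical P14 replicate 2.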

How the results depend on the processing

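No paired analysis was possible because the labels give no replicate numbers that groups share. Counts of members that changed were kept within 1.5 times by 176 of the alternatives, and the others follow. A minimum mean of 100 left fewer members to test and gave 26 (P14 to P1), 20 (P7 to P1) and 23 (P14 to P7) in cortex, 23 (P14 to P1) and 19 (P14 to P7) in hippocampus and 21 and 19 in olfactory bulb. Fits of 2 ages gave 38 (P7 to P1) in hippocampus and 29 in olfactory bulb, DESeq2 gave 30 and 20, and no trend gave 7 in olfactory bulb. In these last cases the cause was not tested. Leaving out 1 library gave 51 to 53, 23 to 30 and 37 to 42 members in cortex for P14 to P1, P7 to P1 and P14 to P7, 32 to 42, 15 to 16 and 20 to 38 in hippocampus, and 36 to 41, 6 to 16 and 27 to 34 in olfactory bulb. Every P28 count was 0 in the alternatives run. For single members 4508 values kept direction and call, 311 lost the call, 3 gained it and 8 turned sign. Those 8 were hippocampal Ntn4 (0.08), which ran from −0.23 to 0.33 over the fits that left out 1 library and turned without P1 replicate 3, P14 replicate 1 or P14 replicate 2, and hippocampal Sema6a (−0.03). Sema6a was at 0.0423 with median-ratio scaling, 0.0926 with edgeR and 0.105 with DESeq2, and ran from −0.29 to 0.24 over the fits without 1 library, turning without P1 replicate 2 or P14 replicate 2. Neither was called. P1 to P14 calls also lost without single libraries were Ntn3 in cortex, Efna2, Ntn1 and Sema5a in hippocampus and Plxna1 in olfactory bulb. The P28 comparisons rest on few libraries, with 2 hippocampal controls.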
